A study of Mus musculus with 2 samples.

Results

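The set described here holds 40 genes of the cell cycle and DNA replication, listed by symbol and found in the gene table of a single-cell RNA-Seq library of osteal macrophages (Omacs), the macrophages of bone surfaces. All 40 were among the 32285 genes listed and all had at least 1 UMI (unique molecular identifier, 1 per captured RNA molecule), as did 18802 genes in all. For this description, 16 members were treated as S phase genes, 20 as G2/M genes, and 4 (Hmgb2, Stmn1, Tubb5 and H2afz) as broad genes, because cells at rest also transcribe them. The library came from BALB/c female mice. OVX mice had been ovariectomized at 10 weeks of age, sham mice had the operation without removal of the ovaries, and bone was taken 4 weeks later. Femurs and vertebrae of 20 mice per condition were pooled, digested with trypsin and collagenase D, and sorted with antibodies to CD11b, F4/80 and CD68. Cells of the OVX pool carried hashtag antibody 1 and cells of the sham pool hashtag antibody 2, and both pools were run together in 1 droplet reaction. Each condition was thus represented by 1 pool without replicates. No p-value was computed, and every interval is at 95% and covers counting error only.

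The deposited matrix held 2349 barcodes and 17681092 UMIs, with a median of 4387 UMIs per barcode and a range from 500 to 141565. The hashtags placed 1059 barcodes in OVX (median 4812 UMIs) and 981 in sham (median 3704 UMIs), 78 were above the cutoff for both and 231 for neither, and 112 of the 231 lay in the stromal-like cluster. The labelled cell type did not match its defining markers in most barcodes. Adgre1, which encodes F4/80, had a UMI in 47 barcodes and Csf1r in 128, C1qa and C1qb each had a UMI in 1 barcode, and C1qc had none. Cd68, a further sorting marker, had a UMI in 543 barcodes. By contrast, S100a8 had a UMI in 2316 and Ngp in 1405. Clustering without 163 cell cycle genes gave 6 clusters. Clusters 1 (1147 barcodes), 2 (602) and 3 (288) were neutrophil-like, with neutrophil marker genes at 250282, 296415 and 313898 UMIs per 1000000 UMIs of the cluster (CPM). Cluster 3 had both neutrophil genes (Ltf, Camp, Ngp) and antigen presentation genes (Cd74, H2-Aa, H2-Ab1) among its leading genes. Cluster 4 (210) was stromal-like, and cluster 5 (61) is called by its leading genes Arg1 and Pf4. Macrophage markers summed to 2385 CPM in cluster 5 and to between 104 and 249 CPM in the others. Cluster 6 (41 barcodes, median 979 UMIs) was led by mitochondrial genes and was not named.

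A cell that divides first copies its DNA in S phase and then separates the copies in mitosis. Before S phase the helicase subunits Mcm2 to Mcm7 are loaded on origins with the help of Cdc6. Pcna then holds polymerases on the template, and Rrm1, Rrm2, Tyms, Dut and Tk1 supply nucleotides. In G2 and mitosis, Cdk1 with the cyclins Ccna2, Ccnb1 and Ccnb2 drives entry, Aurka, Aurkb and Plk1 are mitotic kinases, Top2a and Smc2 untangle and compact chromosomes, and Cdc20 and Ube2c act in the ubiquitin ligase that ends mitosis. In bone marrow, neutrophils come from dividing precursors. Primary granule proteins such as Mpo and Elane are made at the promyelocyte stage and secondary granule proteins such as Ltf and Camp at the myelocyte stage. Metamyelocytes and later neutrophils no longer divide, and they make tertiary granule proteins such as Mmp9.

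S and G2/M genes are also told apart by their promoters, and the windows printed here are those in which the difference can be read. E2F motifs mark many S phase promoters, whereas the cell cycle genes homology region (CHR), often near CCAAT boxes, marks many G2/M promoters. Windows from 250 bases before to 50 after the RefSeq start (build GRCm38.p6) were found for 32 of the 40 members and were searched on both strands, each motif separately, so that matches may overlap. The E2F motif (TTTGGCGC, TTTCCCGC, TTTCGCGC or TTTGCCGC) was in 6 of 15 windows of S members (40%), in 1 of 17 of G2/M members (5.88%, Cdk1) and in 744 of all 32851 promoter windows of the table (2.26%). The CHR (TTTGAA or TTCGAA) was in 13 of 17 windows of G2/M members (76.5%), in 2 of 15 of S members (13.3%) and in 6316 of all windows (19.2%). The letters CCAAT were in 15 of 17 G2/M windows (88.2%), 11 of 15 S windows (73.3%) and 12289 of all (37.4%). A match is a description of the sequence and not a shown binding site. The 150 bases directly before the start follow, 5′ to 3′ on the gene's strand, for 3 S members with E2F letters and 4 G2/M members with CHR letters. Capitals mark matches to any of the motifs on either strand.
Mcm6 (chr1:128359706-128359855, minus strand): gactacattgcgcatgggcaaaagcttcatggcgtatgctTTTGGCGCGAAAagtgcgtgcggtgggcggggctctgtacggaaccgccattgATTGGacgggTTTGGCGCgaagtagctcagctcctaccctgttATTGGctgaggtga
Mcm5 (chr8:75109359-75109508, plus strand): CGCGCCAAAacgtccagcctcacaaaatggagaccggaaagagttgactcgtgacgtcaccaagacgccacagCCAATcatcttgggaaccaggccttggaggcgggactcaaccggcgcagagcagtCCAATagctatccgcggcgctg
Cdc6 (chr11:98908001-98908150, plus strand): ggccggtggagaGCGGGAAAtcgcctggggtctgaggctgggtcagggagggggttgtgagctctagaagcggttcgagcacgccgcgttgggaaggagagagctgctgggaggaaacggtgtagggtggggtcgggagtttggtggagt
Top2a (chr11:99024190-99024339, minus strand): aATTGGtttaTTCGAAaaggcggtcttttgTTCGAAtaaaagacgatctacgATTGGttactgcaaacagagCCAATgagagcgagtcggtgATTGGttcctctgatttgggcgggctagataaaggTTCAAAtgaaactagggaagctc
Mki67 (chr7:135716380-135716529, minus strand): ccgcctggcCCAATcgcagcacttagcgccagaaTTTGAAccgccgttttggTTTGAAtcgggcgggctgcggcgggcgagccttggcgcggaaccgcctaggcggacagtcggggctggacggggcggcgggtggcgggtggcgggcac
Cdk1 (chr10:69352913-69353062, minus strand): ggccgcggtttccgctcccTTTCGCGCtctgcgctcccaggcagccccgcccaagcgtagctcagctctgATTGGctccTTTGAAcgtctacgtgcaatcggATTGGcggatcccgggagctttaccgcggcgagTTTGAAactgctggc
Ube2c (chr2:164769779-164769928, plus strand): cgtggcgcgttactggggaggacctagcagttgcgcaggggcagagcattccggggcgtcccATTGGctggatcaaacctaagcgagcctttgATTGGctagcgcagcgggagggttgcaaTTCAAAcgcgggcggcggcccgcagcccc
In the windows of Mcm5, Mcm6 and Cdc6, genes that load or form the replication helicase, the capitals hold E2F letters, and for Mcm5 and Mcm6 CCAAT letters as well. The windows of Top2a and Mki67, the G2/M members with the most UMIs, and that of Ube2c hold CHR and CCAAT letters and no E2F letters. The window of Cdk1 holds all 3 kinds.

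Most members were rare. Of the S members, Pcna had the most UMIs (1489, 84.2 CPM, Poisson interval 79.99 to 88.6). A Pcna UMI was found in 615 barcodes (26.2%), and in 165 of the 210 stromal-like barcodes (78.6%), whose median depth was 19996.5 UMIs. After thinning every barcode to 1000 UMIs these shares were 5.88% of all and 12.6% of the stromal-like barcodes. The 6 helicase subunits lay between 5.599 CPM (Mcm6) and 15.4 CPM (Mcm3). Dut, which removes dUTP, was at 20.8 CPM, and Rrm1 and Rrm2, the subunits of ribonucleotide reductase, were at 12.2 and 8.03 CPM. The linker histone gene Hist1h1b, of a class whose mRNA mostly lacks the poly(A) tail that the kit captures, was at 24.1 CPM. Tk1 was the lowest S member, with 19 UMIs in 15 barcodes. The kit reads 3′ ends, so levels of different genes are compared here without a length correction and only as captured molecules.

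Among the G2/M members, Mki67, the proliferation antigen Ki-67, and Top2a, the mitotic topoisomerase, led with 933 UMIs (52.8 CPM) and 847 UMIs (47.9 CPM). Ube2c (21.3 CPM), Smc2 (21.2 CPM) and Cenpa (19.6 CPM), the centromere histone, followed. The mitotic kinases were low, with Aurka at 4.19, Plk1 at 4.07, Aurkb at 2.55 and the checkpoint kinase Bub1 at 1.98 CPM. Of the broad members, Hmgb2 and H2afz were on another scale. Hmgb2, a chromatin protein, was at 866 CPM with a UMI in 2016 barcodes (85.8%), and the histone variant gene H2afz was at 327 CPM in 1345 barcodes (57.3%). Tubb5 (71.5 CPM) and Stmn1 (17.5 CPM), which act on microtubules, were lower, and both lay below Pcna (84.2 CPM).

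The members were not spread evenly over the clusters. S members summed to 63.8, 85.0, 591, 291, 220 and 74.5 CPM in clusters 1 to 6, and G2/M members to 25.5, 144, 1271, 61.2, 34.7 and 55.9 CPM. Cluster 3 was thus highest in both, and the stromal-like cluster held S members at 291 CPM beside G2/M members at 61.2 CPM. Mki67 was at 244 CPM in cluster 3, 32.9 in cluster 2 and 5.12 in the stromal-like cluster, whereas Mcm2 was at 15.4, 1.89 and 25.9 CPM in the same clusters and had no UMI in cluster 1. Pcna was at 156 CPM in the Arg1 and Pf4 cluster, 117 in the stromal-like cluster, 113 in cluster 3, 53.3 in cluster 2 and 43.6 in cluster 1. Hmgb2 was highest in cluster 3 (1771 CPM) and was at 285 CPM in the stromal-like cluster. None of these genes was used to form the clusters.

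**Figure D1:**
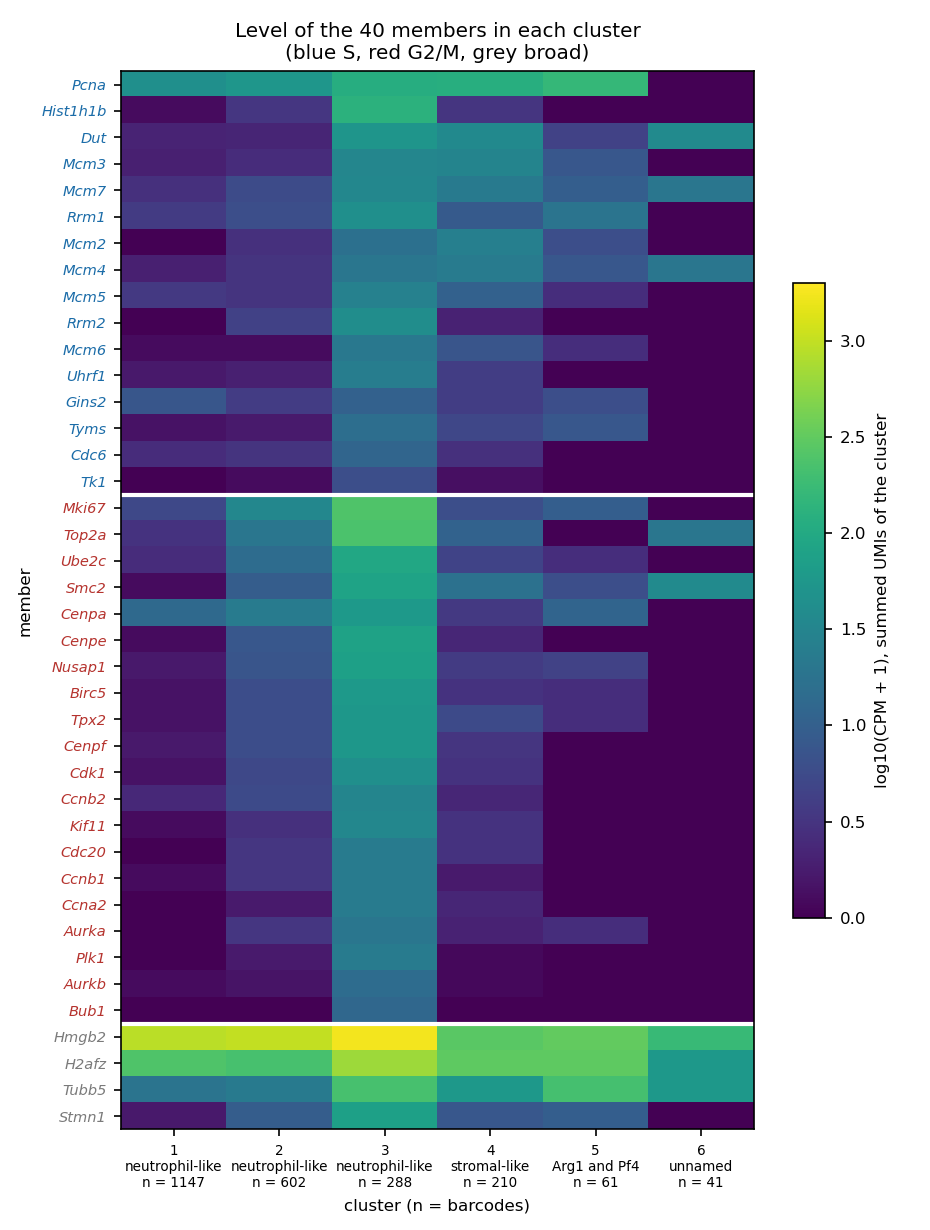
Level of each of the 40 members (rows) in the 6 clusters (columns), as log10 of CPM plus 1 of the summed UMIs of a cluster, on a color scale. White lines separate S, G2/M and broad members. Every G2/M member is brightest in the column of cluster 3, while Pcna, Mcm2 and the broad members are also seen in other columns.

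A cycling barcode was defined as one with 3 or more UMIs of the 36 S and G2/M members after thinning to 1000 UMIs, which left out 171 barcodes with fewer UMIs. By this rule 50 of 2178 barcodes were cycling (2.30%, Clopper-Pearson interval 1.71 to 3.02). The class is a range cut from a score. No member UMI was drawn in 1852 barcodes, 1 in 244 and 2 in 32, whereas 10 barcodes lay at the limit of 3 and the highest had 25. In the unthinned counts a cycling barcode held between 3 and 34 of the 36 members, with a median of 20.5. Cycling barcodes were deeper (median 13651.5 UMIs and 2863 genes) than the others (4726.5 UMIs and 1259.5 genes).

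These 50 barcodes held 78.5% of all G2/M UMIs in the library (3884 of 4948) and 33.9% of all S UMIs (1408 of 4156). Ccna2 (94.9%), Bub1 (94.3%), Rrm2 (93.7%), Top2a (90.3%), Hist1h1b (90.1%) and Kif11 (90%), a spindle motor, were almost wholly in them. Mcm2 (12%), Pcna (14.3%), Gins2 (21.3%) and Mcm3 (22.7%) were mostly outside, as were Hmgb2 (21.5%) and H2afz (20.4%). The other broad members differed, with 36.6% of Tubb5 UMIs and 75.1% of Stmn1 UMIs in the cycling barcodes. A gene mostly outside was not lower in the cycling barcodes relative to their totals. In the neutrophil-like clusters, Mcm2 was at 29.0 CPM in cycling and 3.16 CPM in other barcodes, and Pcna at 275 and 51.3 CPM. Single barcodes carried a large part of some genes. For Hist1h1b, 1 OVX barcode held 83 of 426 UMIs (19.5%) and 5 barcodes held 50% of them, and for Rrm2, 1 sham barcode held 28 of 142 UMIs (19.7%).

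Both pools held cycling barcodes, 22 of 1011 OVX barcodes (2.18%, 1.37 to 3.28) and 22 of 896 sham barcodes (2.46%, 1.55 to 3.69), a ratio of 0.886 (0.468 to 1.68). This interval covers counting error in the barcodes only, and with 1 pool per condition a difference between the conditions could not be tested. The direction also changed with the limit, with a ratio of 0.643 (0.384 to 1.06) at 2 UMIs and 1.30 (0.607 to 2.85) at 5 UMIs. Among barcodes with both hashtags 2 of 60 were cycling, and 4 of 211 among those with neither.

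Of the 50, 39 lay in cluster 3, where 13.8% of barcodes were cycling (39 of 282, 10.02 to 18.4). Cluster 2 had 8 of 561 (1.43%) and the stromal-like cluster 3 of 198 (1.52%, 0.314 to 4.36). Clusters 1, 5 and 6 had none of 1057, 60 and 20, which allows shares up to 0.348%, 5.96% and 16.8%. Within cluster 3 the shares were 17 of 87 in OVX (19.5%, 11.8 to 29.4) and 17 of 148 in sham (11.5%, 6.84 to 17.8), a ratio of 1.70 with an interval from 0.816 to 3.54. Within cluster 2 they were 4 of 443 in OVX (0.903%, 0.247 to 2.30) and 4 of 87 in sham (4.60%, 1.27 to 11.4). Cluster 2 held 461 OVX and 104 sham barcodes and cluster 3 held 89 and 151, so the pools also differed in their make-up. The part of this in the shares was not tested.

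**Figure D2:**
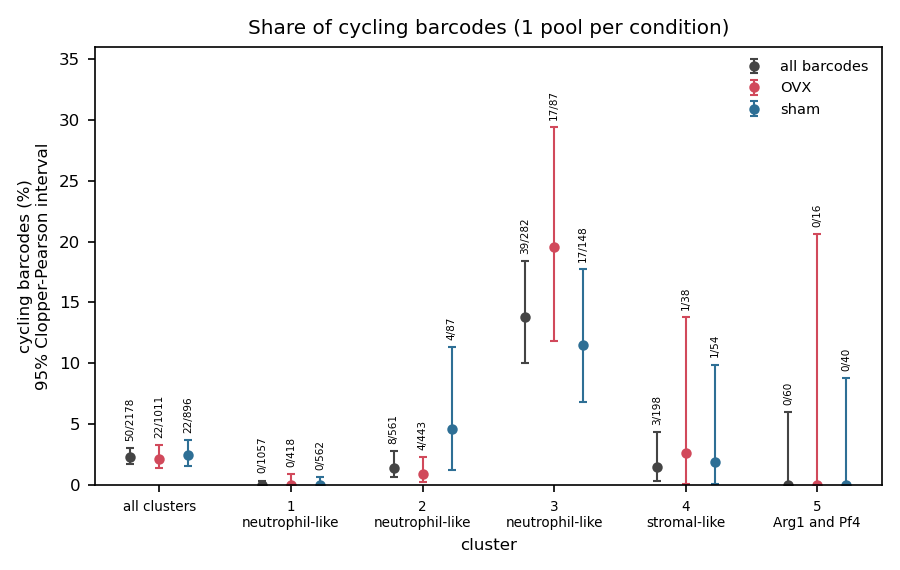
Cycling barcodes as a percentage of all barcodes with at least 1000 UMIs (vertical axis), for the whole library and for clusters 1 to 5 (horizontal axis), in all, OVX and sham barcodes, each from 1 library. Points are shares, bars are Clopper-Pearson intervals and the fractions give the counts. The OVX and sham points are close for all clusters together, and cluster 3 stands highest at 13.8%. Cluster 6 (0 of 20) is not drawn.

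G2/M members outnumbered S members in most cycling barcodes. Of their 5292 cycle UMIs, 1408 came from S members (26.6%, 25.4 to 27.8), and 384 of these came from Hist1h1b alone. By the share of S UMIs, 35 of the 50 were G2/M-leaning (1/3 or less), 11 were mixed and 4 were S-leaning (2/3 or more). The 4 S-leaning barcodes held no Hist1h1b UMI. The S share per barcode ran from 0% to 100% with a median of 24.2%. Per 1000 UMIs the median was 1.48 for S and 4.50 for G2/M members. Over the 50 barcodes the levels of both sets had a Pearson r of -0.24 and a Spearman rho of -0.14. Both measures come from the same library and were divided by the same total, and the barcodes were chosen for a high sum, so these values are a description. The count of 35 of 50 likewise depends on the lists and the rule and is not a share of cells in each phase. Among all thinned barcodes, 192 held only S UMIs, 92 only G2/M UMIs and 42 both. With thinning to 2000 UMIs, S-leaning shares of cycling barcodes were 24.2% in OVX and 27.3% in sham.

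The barcodes at the ends of this range show the pattern gene by gene. A sham barcode of cluster 2 with 2223 UMIs held 2 S and 41 G2/M UMIs. An OVX barcode with 14126 UMIs, the one with 25 cycle UMIs after thinning, held 5 S and 243 G2/M UMIs. At the other end, a sham barcode with 4509 UMIs held 35 S UMIs, among them 13 of Rrm2 and 11 of Pcna, and 4 G2/M UMIs. A further sham barcode with 42016 UMIs held 104 S and 14 G2/M UMIs, 29 of them from Pcna. Barcodes rich in both sets were also seen, such as a sham barcode with 34185 UMIs that held 144 S and 140 G2/M UMIs. An OVX barcode with 43071 UMIs held 119 S and 271 G2/M UMIs, with 60 of Top2a and 56 of Mki67. Of its 119 S UMIs, 83 came from Hist1h1b, and it was G2/M-leaning.

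In OVX, 16 cycling barcodes were G2/M-leaning, 6 were mixed and 0 of 22 were S-leaning, which allows a share up to 15.4%. In sham, 15 were G2/M-leaning, 4 were mixed and 3 of 22 were S-leaning (13.6%, 2.91 to 34.9). The intervals of the S-leaning shares overlap. The share of 0 in OVX depended on the depth of thinning, the UMI limit and how the S share was cut. With 2000 UMIs per barcode the S-leaning shares were 24.2% in OVX (11.1 to 42.3) and 27.3% in sham (13.3 to 45.5), and with 500 UMIs 6.25% (0.158 to 30.2) and 0% (up to 26.5). With a limit of 2 UMIs they were 13.8% and 30%, and with 5 UMIs 0% and 7.69%. A cut at over 1/2 gave 13.6% and 18.2%, and S shares from thinned counts gave 4.55% and 22.7%. Assigning barcodes by their share of hashtag UMIs gave 0% and 16%. The S share of all cycle UMIs was 24.6% in OVX cycling barcodes (23.0 to 26.3) and 31.5% in sham (29.5 to 33.6), whereas the median S share per barcode was 25.9% in OVX and 21.3% in sham. With all 16 S members the direction therefore depended on whether UMIs or barcodes were weighted equally. Hist1h1b alone gave 281 of the 670 S UMIs in OVX cycling barcodes and 66 of the 625 in sham. The share in UMIs and the median share thus both include a gene that was uneven between the pools.

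**Figure D3:**
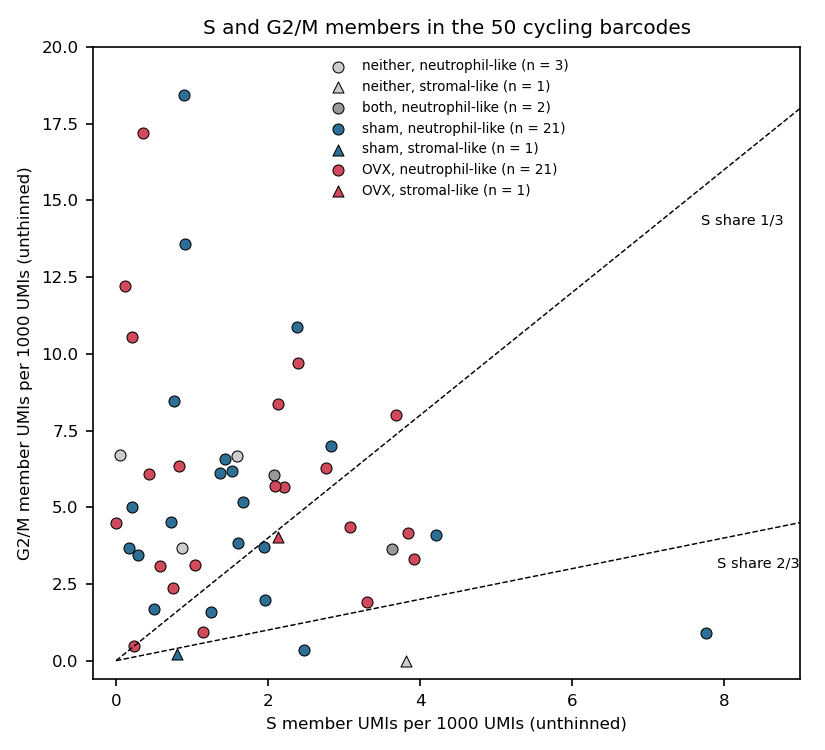
UMIs of the 16 S members (horizontal axis) against UMIs of the 20 G2/M members (vertical axis), both per 1000 unthinned UMIs, with 1 symbol for each of the 50 cycling barcodes. Color gives the hashtag call and shape the cluster type. Most symbols lie above the upper dashed line (S share 1/3), and 4 lie below the lower line (S share 2/3), of which 3 are sham. With barcodes chosen after thinning to 2000 UMIs instead, S-leaning shares were 24.2% in OVX and 27.3% in sham, and with a limit of 5 UMIs 0% and 7.69%.

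OVX and sham were next compared by the CPM of each member over all barcodes. Bulk sums of this kind do not tell fewer cells of a type from less RNA per cell. S members summed to 202 CPM (OVX) against 266 CPM (sham), a ratio of 0.758 (0.708 to 0.812). G2/M members summed to 311 and 289 CPM (1.08, 1.02 to 1.15), and the broad members to 1325 and 1387 CPM (0.956, 0.929 to 0.983). The S and G2/M values each rested on few barcodes. A single sham barcode of cluster 3 held 180 S UMIs, the most in the library. Without it the S ratio was 0.836 (0.779 to 0.897), and without the next sham barcode as well, which held 144, it was 0.917 (0.853 to 0.987). When every barcode had equal weight the S ratio was 1.02. That value includes Hist1h1b, which was at 17.6 CPM (OVX) and 4.45 CPM (sham) with equal weights. An equal-weight S ratio without Hist1h1b was not computed. Without the OVX barcode that held 271 G2/M UMIs the G2/M ratio was 0.964 (0.905 to 1.03), and with equal weights it was 0.934.

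At 100 CPM or more in either condition, 2 members could be read, Hmgb2 and H2afz, and neither passed 1.5-fold. Of all 1456 genes at that level, 6.04% were 1.5-fold or more higher in OVX and 16.3% were lower. To reach the rarer members, genes with 50 or more UMIs in OVX and sham together were also read, a limit added after the data were seen, which kept 37 of the 40 members and 9411 genes. Cenpf and Hist1h1b were 1.5-fold or more higher in OVX, against 5.19% of all genes. Lower in OVX were 13 members, 11 of them S members, against 23.9% of all genes. The median ratio was 0.621 for 15 S members, 1.06 for 18 G2/M members, 0.729 for the 4 broad members and 0.847 for all 9411 genes. Without the sham barcode with 180 S UMIs, 2 of 37 members were higher (5.08% of 9386 genes) and 6 were lower (22.5% of genes), namely Mcm2, Mcm3, Rrm1, Rrm2, Uhrf1 and Stmn1.

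The values of single members, each from 1 OVX and 1 sham pool, differed in how firmly they held. Mcm3, a helicase subunit, was at 7.82 CPM (OVX) against 20.7 CPM (sham), a ratio of 0.38 (0.27 to 0.51), and 0.46 with equal weights as well as without its richest barcode. Uhrf1, which carries DNA methylation through replication, was at 2.56 and 11.1 CPM (0.23, 0.13 to 0.38), and 6 barcodes held 50% of its 97 UMIs. Rrm2 was at 6.03 and 13.6 CPM (0.44, 0.30 to 0.64), or 0.65 without its richest barcode. For Mcm5 the ratio was 0.62 over summed UMIs and 1.07 with equal weights, for Dut it was 0.59 and 1.31, and for Cdc6 0.64 and 2.05, so the direction for these 3 turned with the weighting. Pcna was at 70.7 and 88.4 CPM (0.80, 0.71 to 0.90), or 1.08 with equal weights.

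Hist1h1b stood apart among S members. It was at 39.1 CPM (OVX) against 12.2 CPM (sham) (3.20, 2.49 to 4.15), with 3.95 for equal weights and 2.34 (1.80 to 3.07) without its richest barcode, and 305 OVX UMIs stood against 79 sham UMIs. Tk1 was the other S member with a ratio above 1 (2.07), from 10 and 4 UMIs, with an interval from 0.60 to 9.05. Among G2/M members, Cenpf, a kinetochore protein, was at 15.3 and 7.89 CPM (1.93, 1.38 to 2.74), or 1.33 with equal weights. Mki67 was at 62.8 and 53.5 CPM (1.17, 1.02 to 1.35) and Top2a at 58.6 and 48.3 CPM (1.21, 1.05 to 1.41). Without the richest barcode of each they were at 1.03 and 1.06. Smc2 (0.74, 0.58 to 0.93) and Cenpa (0.78, 0.62 to 0.98) were below 1. Of the other 15 G2/M members, Cenpe, a kinetochore motor, was at 1.37 (1.05 to 1.79), and the intervals of the rest held 1. Without the richest barcode of each gene, Cenpe was at 1.17 (0.890 to 1.54) and Cenpa at 0.856 (0.676 to 1.09), so that both intervals held 1. Smc2 was then at 0.638 (0.498 to 0.816).

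**Figure D4:**
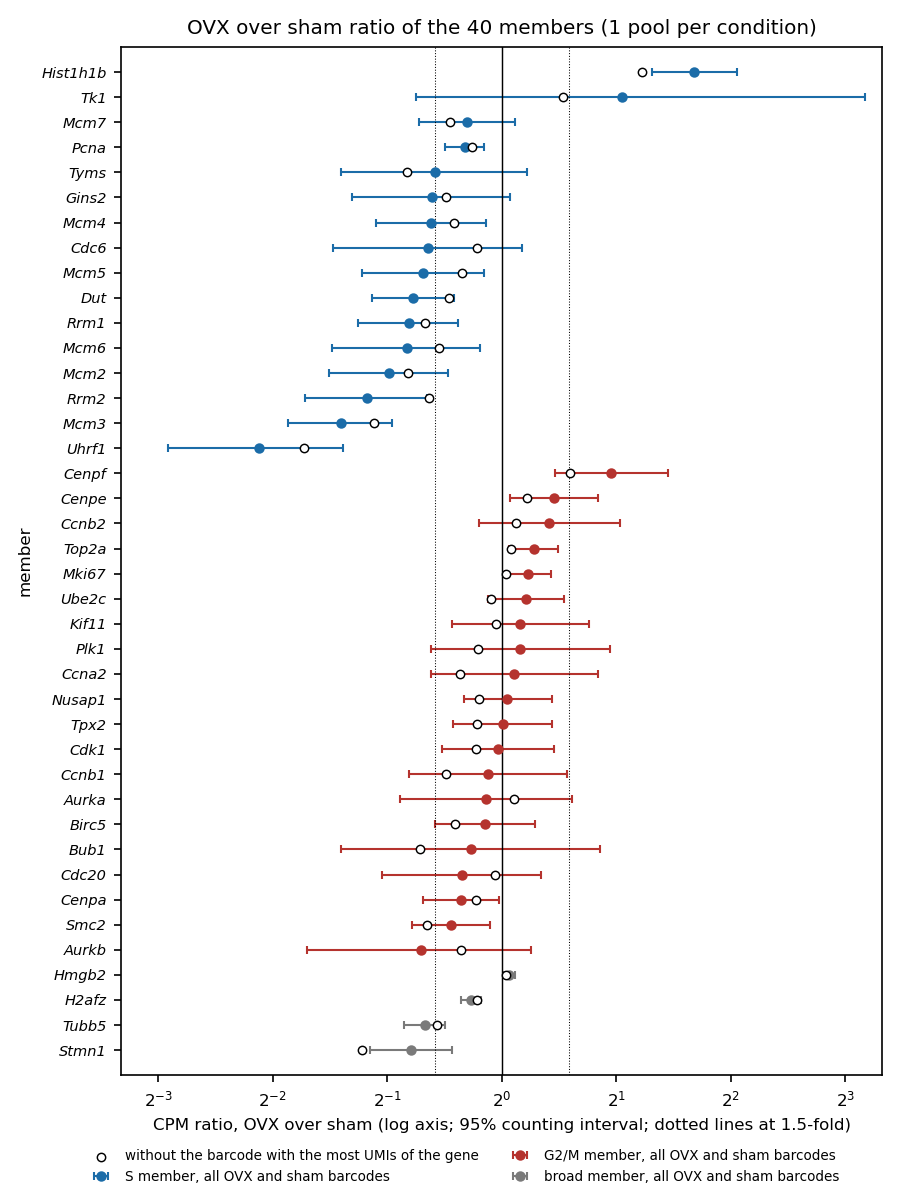
Ratio of CPM in OVX over sham (horizontal log axis) for the 40 members (rows), each from 1 library. Filled points with counting intervals use all OVX and sham barcodes, open points leave out the barcode with the most UMIs of that gene, and dotted lines mark 1.5-fold. Most S members lie left of 1, Hist1h1b lies right of 1 at 3.20, and the G2/M members lie around 1.

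The sham barcode with 180 S UMIs had 84224 UMIs in all. It held 44 G2/M UMIs, 28 of the 36 S and G2/M members, and 2 cycle UMIs after thinning, so it was not a cycling barcode. Mcm3 had 26 UMIs in it, Dut 33, Pcna 26, Uhrf1 18 and Mcm5 16. It also held 3213 UMIs of neutrophil markers (S100a8 1205, S100a9 1648), 157 of monocyte markers (Ccr2 36) and 94 of macrophage markers (Msr1 66, Adgre1 15, Csf1r 3). It was not marked as a doublet, although the caller marked 1 barcode in the whole library and so cannot be relied on here.

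Within the 50 cycling barcodes the comparison looked different. S members were at 2030 CPM (OVX) against 1749 CPM (sham) (1.16, 1.04 to 1.30), and G2/M members at 6214 and 3803 CPM (1.63, 1.53 to 1.75). These sums give deep barcodes more weight. The median per barcode was 5.07 G2/M UMIs per 1000 in OVX and 4.30 in sham, a smaller gap than in the sums. The CPM ratios of single members below are also from sums. The S value turned with 1 gene, as the other 15 S members without Hist1h1b were at 1179 CPM (OVX) against 1564 CPM (sham) (0.753, 0.660 to 0.859). Over all barcodes these 15 were at 0.641 (0.595 to 0.690). The sham cycling barcodes gave 559 UMIs of these 15, and 1 of these barcodes held 144 S UMIs, 13 of them from Hist1h1b. A ratio of the 15 without that barcode was not computed. Outside the cycling barcodes both full sets were lower in OVX, at 0.675 for S and 0.609 for G2/M members. The sham sums there were 1094 S and 507 G2/M UMIs, and 180 and 44 of them came from the 1 sham barcode richest in S UMIs. Over all barcodes, the median ratio of the 9411 genes with 50 or more UMIs was 0.847. Among 29 members with 50 or more UMIs in the cycling barcodes, 13 were 1.5-fold or more higher in OVX, 12 of them G2/M members, where 10.6% of 1837 genes were, and 3 (Mcm3, Dut and Rrm2) were lower, where 17.8% of genes were. These barcodes were chosen for their sum of 36 of the members. Hist1h1b was at 851 and 185 CPM (4.61, 3.51 to 6.12), Cenpf at 330 and 84.0 CPM (3.93), Top2a at 1321 and 722 CPM (1.83, 1.57 to 2.14) and Mki67 at 1221 and 722 CPM (1.69, 1.44 to 1.99). Rrm2 was at 133 and 235 CPM (0.57) and Pcna at 239 and 311 CPM (0.77). The sham barcode with 144 S UMIs held 28 of the 84 sham UMIs of Rrm2 and 12 of the 56 of Dut. Each side rests on 22 barcodes of 1 pool.

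By cluster, G2/M members in cluster 3 were at 1929 CPM (OVX) against 841 CPM (sham) (2.29, 2.14 to 2.46), whereas in cluster 2 they were at 76.6 and 572 CPM (0.134, 0.114 to 0.158). In cluster 3, 17 cycling barcodes held 1839 of the 1939 OVX UMIs (94.8%), and 17 held 1206 of the 1400 sham UMIs (86.1%). The interval counts UMIs and not barcodes. In cluster 2, 151 of the 334 sham UMIs (45.2%) lay in 4 cycling barcodes. In the stromal-like cluster the ratio was 3.33 (2.49 to 4.50), with 136 of the 175 OVX UMIs in 1 barcode. S members were higher in OVX in cluster 3, at 712 CPM (OVX) against 570 CPM (sham) (1.25, 1.13 to 1.38), and in the stromal-like cluster, at 346 and 286 CPM (1.21, 1.06 to 1.38), unlike over all barcodes. Without Hist1h1b these ratios were 0.799 (0.710 to 0.898) in cluster 3 and 1.20 (1.05 to 1.37) in the stromal-like cluster. Both stromal-like ratios include the OVX barcode with 136 G2/M UMIs, which also held 72 of the 448 OVX S UMIs of that cluster. Stromal-like ratios without it were not computed. The 877 sham UMIs behind the cluster 3 value include those of the barcode with 180 S UMIs, only 4 of which came from Hist1h1b. A cluster 3 ratio without that barcode was not computed. In cluster 2 S members were at 74.8 and 135 CPM (0.553, 0.429 to 0.721), and in the Arg1 and Pf4 cluster at 123 and 253 CPM (0.487, 0.288 to 0.787), from 21 and 96 UMIs. In cluster 1, which had no cycling barcode, the ratios were 1.12 for S members (0.873 to 1.44) and 1.14 for G2/M members (0.748 to 1.73), and both intervals held 1.

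The cycling barcodes were then compared with the others in the neutrophil-like clusters, where 47 of 1900 barcodes were cycling. Of 3006 genes at 50 CPM or more, 39.1% were 1.5-fold or more higher in the 47 and 28.9% were lower. All 33 members at that level were higher and 0 were lower, which the choice of barcodes fixes for the 36 S and G2/M members. The broad members had no part in that choice, but Tubb5 and Stmn1 passed 50 CPM through the cycling barcodes alone. Hmgb2 was at 4434 CPM in cycling and 949 CPM in other barcodes (4.67, 4.49 to 4.86), H2afz at 1502 and 266 CPM (5.64), Tubb5 at 623 and 34.9 CPM (17.8) and Stmn1 at 279 and 6.05 CPM (46.1). Of 48 other S phase genes 19 were at 50 CPM, 18 of them in cycling barcodes alone, and of 75 other G2/M genes 55 were, 46 of them in cycling barcodes alone, so a count of those that were higher says nothing here. Summed without a limit, all 48 other S genes were at 2867 CPM in cycling and 304 CPM in other barcodes, and all 75 other G2/M genes at 10404 and 1584 CPM. Among the genes outside all lists, Hist1h3c, a histone gene, was at 365 and 1.58 CPM, Pclaf, a Pcna-binding protein, at 406 and 4.84 CPM, Fbxo5, an inhibitor of the mitotic ubiquitin ligase, at 78.7 and 0.558 CPM, and Cenph, a kinetochore protein, at 55.2 and 0.465 CPM. Hist1h2ab (579, 97.9 to 23438), Hist1h2ae (66.6) and Lockd (54.4) also had high ratios, the first from 39 against 1 UMI. Lowest were Cd74, with 1 UMI in cycling and 964 in other barcodes, Ifi27l2a, with 1 and 647, and Ifitm1, Jaml and Tlr13 with ratios of 0.04, 0.06 and 0.07. The genes named at both ends were picked by these same ratios. The high ones passed 50 CPM through the cycling barcodes alone and the low ones through the other barcodes alone, so they are a description.

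Of the 24 regulators of the cycle, 12 were at 50 CPM or more, and of these 3 were 1.5-fold or more higher in cycling barcodes and 4 were lower, where 39.1% and 28.9% of all genes were. Cdk4 and E2f2 passed that limit through the cycling barcodes alone. Cdk4, the kinase of early G1, was at 52.5 and 7.44 CPM (7.05, 4.66 to 10.5), E2f2, a transcription factor of S phase genes, at 60.8 and 15.7 CPM (3.86) and Cdkn2d, an inhibitor of Cdk4, at 213 and 83.9 CPM (2.53). Cdkn2c, a further inhibitor of that kinase, was at 33.1 and 0.558 CPM (59.4), below the limit of 50 CPM. The antiproliferative genes Btg1 (511 and 2135 CPM) and Btg2 (164 and 450 CPM) were lower, as were Gadd45a (89.8 and 153 CPM) and Cdkn1b (84.2 and 132 CPM). Cdkn1a, which encodes the inhibitor p21, was at 323 CPM in cycling and 243 CPM in other barcodes (1.33, 1.16 to 1.52). Within cluster 3 alone, cycling over other ratios were 0.45 for Btg1 and 0.56 for Btg2, but 0.83 for Gadd45a and 1.005 for Cdkn1b. They were 2.26 for Cdk4, 2.12 for E2f2, 1.72 for Cdkn2d and 1.74 for Cdkn1a. Cdk4 had a UMI in 10 of the 47 cycling barcodes, and 28.9% of those UMIs lay in 1 barcode.

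The cycling barcodes of the neutrophil-like clusters had more secondary granule UMIs and fewer mature neutrophil UMIs, relative to their totals, than the others. The 9 secondary granule genes summed to 26025 CPM in the 47 cycling barcodes and to 13379 CPM in the other 1853 (1.95). A UMI of this list was in all 47 and in 1759 of the 1853. Mature neutrophil genes summed to 4036 and 32235 CPM, with a UMI in 45 of the 47 and in 1851 of the 1853, and tertiary granule genes to 704 and 3746 CPM. The secondary granule list was not uniform, with 5 of 9 genes 1.5-fold or more higher in cycling barcodes and 2 lower, where 39.1% and 28.9% of all genes were. Ltf was at 2374 and 972 CPM, Camp at 3993 and 1042 CPM, Ngp at 13663 and 6409 CPM, and Cebpe, the transcription factor of this stage, at 122 and 30.9 CPM, and Chil3 was higher as well (483 and 76.1 CPM). Hp (145 and 354 CPM, 0.41) and Pglyrp1 (276 and 422 CPM, 0.65) were lower, and Lcn2 (3753 and 2933 CPM, 1.28) and Cd177 (1216 and 1139 CPM, 1.07) stayed below 1.5-fold. Mmp8 (122 and 1103 CPM), Mmp9 (246 and 1796 CPM), Retnlg (1495.4 and 12340 CPM), Ccl6 (1638 and 15216 CPM) and the chemokine receptor Cxcr2 (358 and 1548 CPM) were lower. In all, 10 of 10 mature neutrophil genes and 4 of 5 tertiary granule genes were 1.5-fold or more lower.

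Set against the other barcodes of cluster 3 alone, secondary granule genes were not higher in cycling barcodes. They were at 26679 CPM in the 39 cycling and 34074 CPM in the 243 other barcodes of that cluster (0.783), with medians per barcode of 29803 and 32549 CPM. Camp was at 4150 and 3992 CPM there, Ltf at 2503 and 3383 CPM and Lcn2 at 3888 and 6520 CPM. Mature neutrophil genes were lower in the cycling barcodes of cluster 3 too, at 2807 and 12043 CPM. With the number of cycle UMIs per 1000 (0, 1, 2, 3 to 5 and 6 to 25), mature neutrophil genes were at 33528, 27046, 8979, 6560 and 2372 CPM and tertiary granule genes at 3877, 3211, 1424, 952 and 541 CPM, each lower than the class before. Summed secondary granule genes had no such order, with 12996, 16099, 15828, 32389 and 21828 CPM. Their medians per barcode rose and then levelled off, with 3205, 3729, 16726, 28550.5 and 28388 CPM. Among the 47 cycling barcodes the secondary granule level had an r of -0.11 and a rho of -0.14 with the S share. In the neutrophil-like clusters 2 cycling barcodes were S-leaning, with secondary granule genes at 22912 CPM (21557 to 24330), and the 35 G2/M-leaning ones had them at 29208 CPM.

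Primary granule genes were rare and uneven. They summed to 402 CPM (357 to 451) in cycling and 8.84 CPM in other barcodes, but 206 of the 291 UMIs lay in 1 sham barcode with 53885 UMIs and 28 of the 47 cycling barcodes had none. That barcode held 81 UMIs of Prtn3, 62 of Ms4a3, 50 of Elane, 7 of Ctsg and 6 of Mpo, with 67 S and 85 G2/M UMIs. Its secondary granule level was 2932 CPM and its mature level 538 CPM. Without it primary granule genes were at 127 CPM, 14.3 times the level of other neutrophil-like barcodes and 4.14 times that of other cluster 3 barcodes. Without the 3 richest barcodes they were at 92.7 CPM, or 10.5 and 3.03 times those levels. Elane and Prtn3 are among the genes with the highest ratios (151 and 60.0), and 98.04% and 80.2% of their cycling UMIs were in that barcode.

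**Figure D5:**
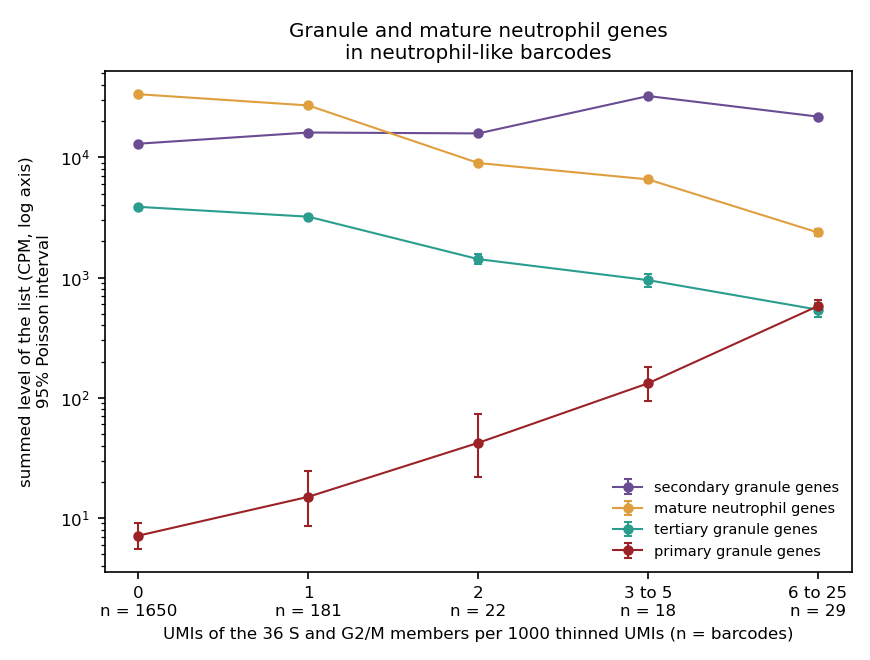
Summed CPM of 4 lists of neutrophil genes (vertical log axis) in neutrophil-like barcodes grouped by their UMIs of the 36 S and G2/M members per 1000 thinned UMIs (horizontal axis), with Poisson intervals. Mature neutrophil and tertiary granule genes are lower in each class than in the one before, from 33528 to 2372 CPM for the mature genes. Primary granule genes go from 7.13 to 580 CPM, and the sums of secondary granule genes lie between 12996 and 32389 CPM. Medians per barcode of the secondary genes, not drawn, went from 3205 CPM in the lowest class to 28388 CPM in the highest. The highest primary point includes the sham barcode with 206 primary granule UMIs.

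Cycling barcodes outside the neutrophil-like clusters or with few neutrophil marker UMIs were rare. Neutrophil marker UMIs per 1000 ranged from 2 to 509 in the 50 cycling barcodes, with a median of 310.5 against 218.5 in the others. Cycling barcodes were 3 of 278 outside the neutrophil-like clusters (1.08%, 0.223 to 3.12) and 3 of 197 with fewer than 5 neutrophil marker UMIs per 1000 (1.52%, 0.315 to 4.39). Together these were 4 barcodes. The first, an OVX barcode of the stromal-like cluster with 33794 UMIs, held 72 S and 136 G2/M UMIs, with Top2a at 53 and Mki67 at 19, and had 244 UMIs of stromal and 624 of monocyte markers, a list that includes the matrix gene Fn1. The second, with neither hashtag and 1050 UMIs, held 2 UMIs of Pcna, 1 of Mcm2 and 1 of Rrm1 and no G2/M UMI. The third, a sham barcode of the stromal-like cluster with 8709 UMIs, held 7 S UMIs, 4 of them from Pcna, and 2 G2/M UMIs.

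The remaining one was the sham barcode of cluster 3 with 34185 UMIs that held 144 S and 140 G2/M UMIs, with Top2a at 36, Rrm2 at 28 and Mki67 at 21. It had 52 UMIs of neutrophil markers and 28 of macrophage markers, 19 of them from Msr1, and it also held 16 UMIs of Prtn3 and 1 of Elane, the second most primary granule UMIs of the cycling barcodes. It is listed here by its neutrophil marker count, and its lineage was not settled. With Leiden clustering, 1000 variable genes or 30 neighbors it fell into the Arg1 and Pf4 cluster, which then had 1 cycling barcode (of 95, 103 and 74), and with cell cycle genes kept in the clustering it did not. With no cycling barcode in 60, the Arg1 and Pf4 cluster still had S members at 220 CPM, of which Pcna gave 156 CPM, and G2/M members at 34.7 CPM. None of 7 barcodes with 5 or more dendritic cell marker UMIs per 1000 was cycling, nor any of 5 with 5 or more macrophage marker UMIs, which allows shares up to 41.0% and 52.2%.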

How the data were processed

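The deposited values are whole-number UMI counts per gene and barcode, made by the authors with Cell Ranger (6.0.0 in the file header, 6.0.1 per the labels) and its mm10 reference, without normalization, for barcodes called as cells. The hashtag library deposited as a second sample was not used here. Barcodes were given to OVX or sham from hashtag UMIs of the same matrix, with HTODemux at a positive quantile of 0.99 (Seurat 5.3.0, run in R 4.3.3).

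Clusters came from scanpy 1.11.5 and Louvain clustering (igraph 0.11.9) with counts scaled to 10000, 2000 variable genes, 30 components and 15 neighbors, at the lowest resolution that gave 6 clusters. Scrublet marked 1 barcode and none was removed. Levels are summed UMIs per 1000000 (CPM), ratios compare CPM, and intervals are exact. Barcodes were thinned once to 1000 UMIs, and 0 columns were left unmapped. The members and gene lists were chosen with earlier results of these data known. Genes named are the members, genes of the granule, mature neutrophil and regulator lists, and those outside the cycle lists with the 10 largest and 5 smallest ratios between cycling and other barcodes, or 5 at each end between S-leaning and G2/M-leaning barcodes. 1 gene that the rule names is not reported here. The calculations were tested on simulated data.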

Additional observations from a re-analysis of the deposited data

How the results depend on the processing

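No paired analysis was possible because each condition was 1 pool in 1 library, and no replicate could be left out. Limits are 1 pool per condition and 50 cycling barcodes. Of the values under alternatives, 79 stayed within their counting interval or 1.5 times the main count, 41 moved and 10 changed direction, and the cause of each change was not tested unless named here. Counting all 40 members gave cycling shares of 18.002% in OVX and 17.6% in sham. Thinning to 2000 UMIs gave 3.65% and 4.36%, and the S-leaning shares were then 24.2% and 27.3%. Thinning to 500 UMIs gave 1.51% in OVX and 1.22% in sham, with S-leaning shares of 6.25% and 0%. A limit of 2 UMIs gave 2.87% in OVX and 4.46% in sham, and a limit of 5 UMIs 1.88% and 1.45%. The OVX over sham ratio of cycling shares was 1.24, 0.643 and 1.30 in these settings. Its direction thus changed with the setting, and each interval held 1. At 2 UMIs the neutrophil-like share was 3.63% and that of the Arg1 and Pf4 cluster 8.33%. The settings chosen after the data were seen were cluster 3 only (19.5%, 11.5% and a ratio of 1.70), the limit of 50 UMIs, and leaving out cycling or richest barcodes.

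For OVX over sham, S members were at 1.02 with equal weights, 0.667 without the stromal-like cluster, 1.16 in cycling barcodes, 0.675 without these and 0.836 without the richest barcode. G2/M members were at 0.934, 0.935, 1.63, 0.609 and 0.964 in the same order. Without Hist1h1b, also a setting added after the data were seen, S members were at 0.641, and at 0.753 in cycling barcodes. This setting was not computed with equal weights. Broad members were at 1.01 under the other hashtag rule, 0.863 without the stromal-like cluster, 1.01 in cycling barcodes and 1.01 without them. Members lower in OVX numbered 0 at 100 CPM, 1 at 50 CPM, 1 without the stromal-like cluster, 3 in cycling barcodes, 13 at 50 UMIs and 6 without the barcode richest in S UMIs. The ratio of cycling over other barcodes was, for primary granule genes, 14.5 in cluster 3, 10.1 without barcodes over 3 times their cluster's median depth, 14.7 in OVX and 14.3 without the richest barcode. For secondary granule genes it was 1.74 and 1.88 at limits of 2 and 5 UMIs, 2.90 with equal weights, 0.783 in cluster 3, 2.24 without deep barcodes, 2.51 in OVX and 1.498 in sham. For mature neutrophil genes it was 0.165, 0.1001, 0.141, 0.233 and 0.138 in the same order up to the deep barcodes, and 0.113 in sham.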

Other observations

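Between S-leaning and G2/M-leaning barcodes of the neutrophil-like clusters, genes outside the cycle lists could be compared over 2 and 35 barcodes. At the S-leaning end were Spata7 (28 UMIs in the 2 barcodes and 3 in the 35), Pla2g4a (7 and 2), Snhg20 (5 and 2), Ppil1 (7 and 5) and Wdr43 (11 and 8). At the other end were Cxcl2 (1 and 293 UMIs), Btg1 (3 and 295), Ifitm6 (1 and 375), Hist1h1e (1 and 395) and Camp (12 and 2344). With 2 barcodes on the S-leaning side these are values of those barcodes. The 24 regulators of the cycle summed to 2085 CPM in cycling and 3605 CPM in other neutrophil-like barcodes. Btg1 alone gave 370 of the 1510 UMIs in cycling and 22949 of the 38747 UMIs in other barcodes. The sums therefore do not describe the regulators as a group.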
